A study of Ovis aries with 15 samples.

Results

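The genes described here encode the enzymes that take glucose through glycolysis, the pentose phosphate pathway, pyruvate dehydrogenase and the citrate cycle, with the kinases of pyruvate dehydrogenase, the enzymes of anaplerosis and gluconeogenesis and the aspartate aminotransferases. They were taken by symbol from a list of 48 genes. The deposited table of 24691 features held 43 of them under the listed symbol. The other 5 stood under another name, PFKL as PFK-L, MDH2 as MDH and GOT2 as MAST by their place among neighbouring genes, and PFKM and PDHX by their gene number, and they were counted apart from the 43. They were chosen by symbol and not by a measured value, but with earlier results of these data known.

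Mammary tissue of Romney ewes was taken by needle biopsy, and its RNA was sequenced, at day 135 of gestation (late pregnancy, 9 libraries) and day 15 after parturition (lactation, 6 libraries). Each library was 1 pool of RNA from several ewes, 3 ewes by the methods of the study and by the labels of late pregnancy, but 2 by the labels of lactation. The ewes were grouped by the pasture allowance of their own dams in early gestation, ad libitum (HM), maintenance (MM) or sub-maintenance (LM), all followed by a maintenance allowance to the end of gestation, with 3 late pregnancy and 2 lactation pools in each group. All the ewes themselves were managed and fed alike. The labels say that ewes were sampled in late pregnancy and again in lactation, but no label links a pool of 1 state to a pool of the other, so each p-value below measures the spread between pools.

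A lactating gland takes up glucose for lactose, for glycerol and for energy. The pentose phosphate pathway and the cytosolic NADP-linked isocitrate dehydrogenase supply NADPH for the synthesis of milk fatty acids, and in ruminants acetate rather than glucose is the main carbon source for that synthesis. Pyruvate enters the mitochondrion through a carrier and is either oxidised by pyruvate dehydrogenase, which its kinases switch off and its phosphatases switch on, or carboxylated to oxaloacetate.

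Gene reads numbered 7597938 to 19823166 in the late pregnancy libraries, and in those of lactation they numbered 10352962 to 25679416. The 7 most abundant milk protein genes took 13.7 to 23.4% of the reads used in late pregnancy and 71.3 to 75.8% in lactation, which leaves fewer reads for every other gene. Levels are given as CPM, reads scaled to a common library size, after TMM, a scaling that sets the bulk of genes equal between libraries. A change is therefore a change relative to most other genes. With library size alone, the median of all 13345 tested genes lay at log2 -1.94 instead of -0.03, and every member that rose under TMM fell except PGD and PCK2, which stayed higher at log2 1.09 and 0.74. Reads on introns made up 13.8 to 15.3% of gene reads in the late pregnancy libraries and 5.74 to 6.54% in those of lactation, except for the first HM lactation pool at 12.9%. The tissue label was checked on the epithelial markers KRT19 and ELF5, which had medians of 619 and 624 CPM in late pregnancy and 909 and 1092 CPM in lactation. Both come from a list of 8 luminal markers that did not all move alike. By the test used below 4 of the 8 were higher in lactation and 2 were lower. KRT7 was among the lower, with medians of 264 CPM in late pregnancy and 126 CPM in lactation.

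Of the 43 genes, 42 passed the filter on low counts, and the exception was PCK1. Between the states 34 of the 42 differed by edgeR's quasi-likelihood test at an adjusted p under 0.05, 16 of them higher and 18 lower in lactation. Over all tested genes 68.4% were called, 33.1% higher and 35.2% lower. The median change of the 42 was log2 -0.08, beside -0.03 over all genes, and their median absolute change was 0.49, beside 0.46. No lactation library overlapped the late pregnancy range in 23 of the 42, and the same held for 40.2% of all tested genes. Changes of at least 2-fold were called for 8 members, where 22.1% of all genes had one. PGD, PCK2, FBP1 and PKM were higher in lactation, and ALDOC, PFKFB3, RPIA and PDK4 were lower. Each of the 8 kept its libraries apart. Fewer cells of a type and less RNA in each cell cannot be told apart in these pooled biopsies. Of the 5 genes under other names PFKL rose, PDHX fell, and PFKM, MDH2 and GOT2 did not pass the test.

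**Figure D1:**
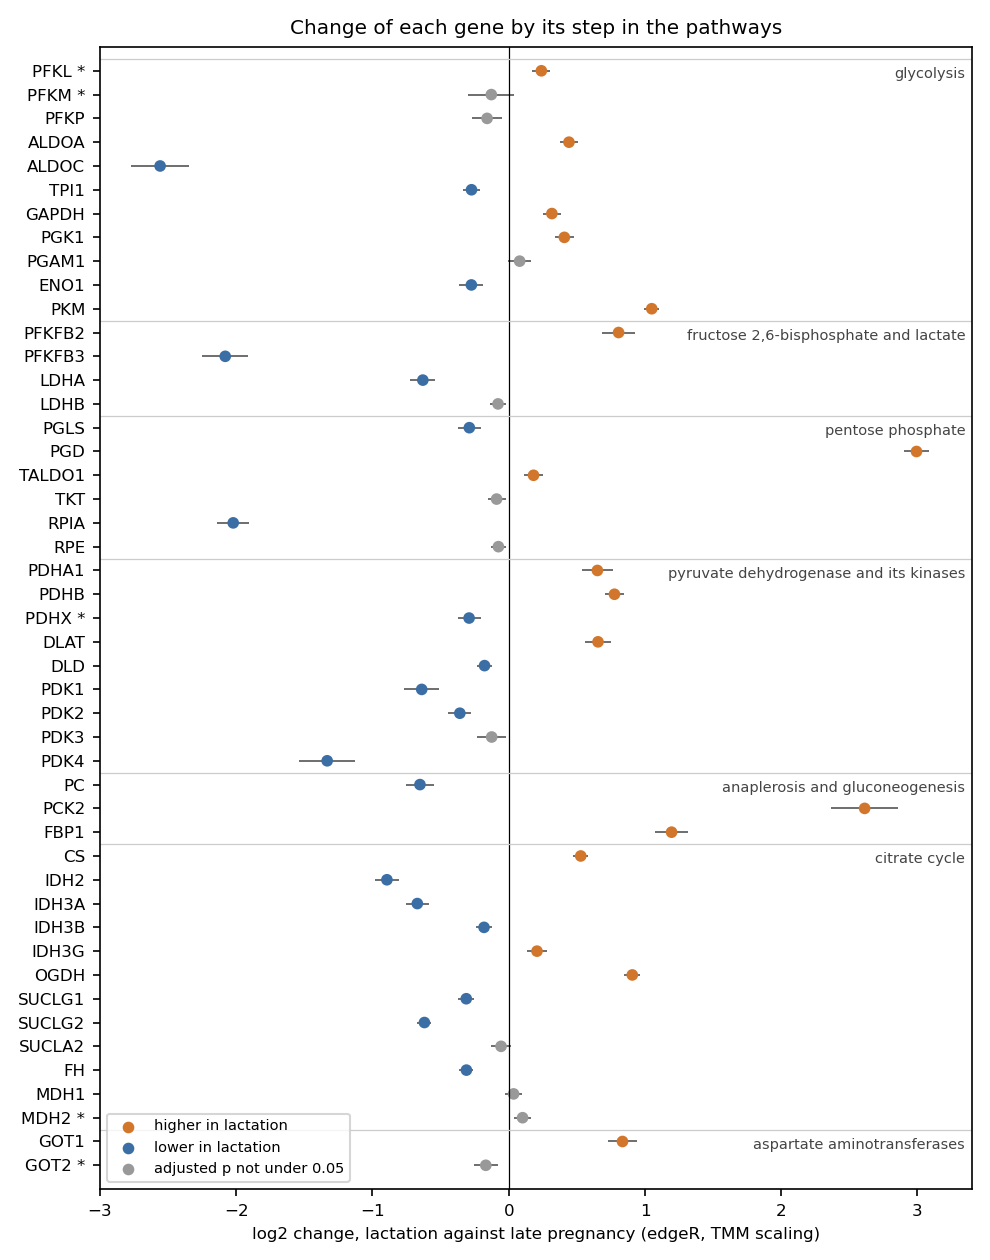
The log2 change between lactation and late pregnancy is plotted for 47 genes in the order of the pathways, with bars of 1 SE (9 and 6 libraries) and a star on genes found under another name. The changes run from ALDOC at -2.56 to PGD at 2.99 on the TMM scale, and those of the citrate cycle and the aspartate aminotransferases all lie between -1 and 1.

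**Figure D2:**
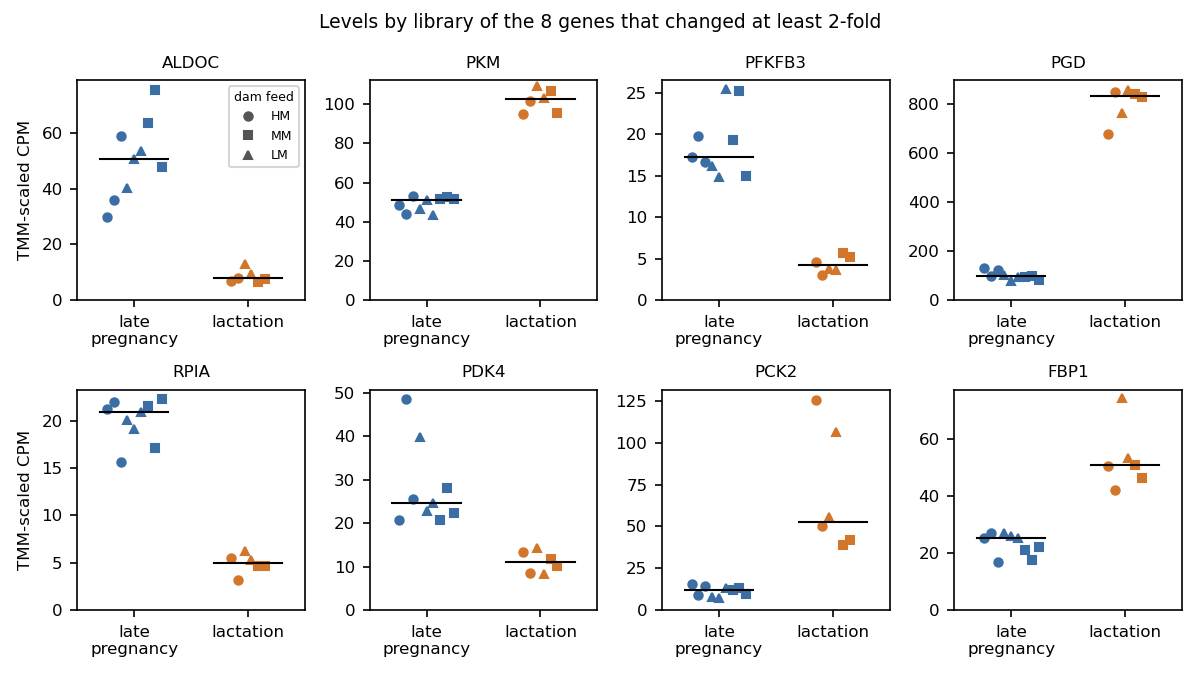
Each point is the TMM-scaled CPM of 1 library, with the shape giving the dam feed group and the line the median of the state. In none of the 8 genes did the 9 late pregnancy and 6 lactation libraries overlap. Relative to its level PCK2 in lactation spread most, from 39.1 to 126 CPM.

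Glycolysis splits glucose into pyruvate, and its genes moved in both directions. Of its 11 genes, 2 of them under another name, 5 were higher, 3 were lower and 3 did not pass the test. PKM, pyruvate kinase of the last step (chromosome 7, 18781963 to 18819824 in the deposited coordinates), stood from 43.6 to 53.3 CPM (median 51.3) in late pregnancy and from 95.2 to 109 CPM (median 102) in lactation. Every lactation library lay above every late pregnancy library, at 2.07-fold (log2 change 1.05 ± 0.06 SE, edgeR adjusted p = 1.73e-12). ALDOC, the minor of the measured aldolases (chromosome 11, 19653683 to 19657356), ranged from 29.7 to 75.4 CPM (median 50.7) in late pregnancy and from 6.70 to 13.0 CPM (median 7.88) in lactation. It fell 5.89-fold without overlap (log2 change -2.56 ± 0.21 SE, edgeR adjusted p = 1.65e-09), although its late pregnancy pools differed among themselves by more than 2-fold. ALDOA, the major aldolase, ranged from 139 to 183 CPM (median 163) in late pregnancy and from 200.2 to 236 CPM (median 214) in lactation, again without overlap, and rose 1.36-fold (log2 change 0.44 ± 0.06 SE, edgeR adjusted p = 3.73e-06). The aldolase genes thus moved in opposite directions.

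The gene of glycolysis with the highest level per length was GAPDH, glyceraldehyde-3-phosphate dehydrogenase, with median CPM per kilobase of exon of 156 in late pregnancy and 191 in lactation. Its libraries ran from 169 to 204 CPM (median 194) in late pregnancy and from 201 to 279 CPM (median 237) in lactation and overlapped, for a rise of 1.25-fold (log2 change 0.32 ± 0.07 SE, edgeR adjusted p = 0.000254). PGK1, the next enzyme, rose by log2 0.41 without overlap. TPI1 and ENO1 fell by small amounts, log2 -0.27 and -0.27, with overlapping libraries, and PGAM1 was at 0.08 (edgeR adjusted p = 0.401). These shifts were small beside those of ALDOC and PKM. GAPDH, PGK1 and PFKL were no longer called when limma was run on the quantile-normalized RPKM, at log2 0.03, 0.15 and 0.09.

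Phosphofructokinase catalyses the committed step of glycolysis. PFKL, the liver type, ranged from 37.9 to 47.6 CPM (median 44.2) in late pregnancy and from 44.8 to 58.6 CPM (median 49.8) in lactation, with overlap, and rose 1.18-fold (log2 change 0.24 ± 0.07 SE, edgeR adjusted p = 0.00298). PFKM, the muscle type, lay from 4.84 to 8.96 CPM (median 6.34) in late pregnancy and from 3.87 to 7.47 CPM (median 5.73) in lactation and did not pass the test (log2 change -0.13 ± 0.17 SE, edgeR adjusted p = 0.515). PFKP, the platelet type, lay from 3.83 to 5.85 CPM (median 4.90) in late pregnancy and from 3.83 to 4.88 CPM (median 4.39) in lactation and did not pass it either (log2 change -0.16 ± 0.11 SE, edgeR adjusted p = 0.281). PFKL was the most abundant of the isozymes per length in every library, with a share of their summed RPKM from 70.9 to 83.2% (median 79.1%) in late pregnancy and from 79.7 to 84.5% (median 83.4%) in lactation. That share was higher in lactation (exact permutation test, adjusted p = 0.0146), but not with quantile-normalized RPKM (adjusted p = 0.688). The share of PFKP fell (exact permutation test, adjusted p = 0.0112), again not with quantile-normalized RPKM (adjusted p = 0.795), and that of PFKM did not pass (exact permutation test, adjusted p = 0.0895), except without the first HM lactation pool (adjusted p = 0.0273).

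Fructose 2,6-bisphosphate, made and broken down by the PFKFB enzymes, activates phosphofructokinase. PFKFB3, the isozyme whose kinase most outweighs its phosphatase (chromosome 13, 10675195 to 10691395), stood from 14.8 to 25.4 CPM (median 17.2) in late pregnancy and from 2.99 to 5.66 CPM (median 4.21) in lactation. It fell 4.23-fold without overlap (log2 change -2.08 ± 0.17 SE, edgeR adjusted p = 1.36e-09). PFKFB2 moved the other way, from 7.09 to 9.81 CPM (median 8.42) in late pregnancy and from 9.90 to 18.2 CPM (median 15.8) in lactation, again without overlap, a rise of 1.75-fold (log2 change 0.81 ± 0.12 SE, edgeR adjusted p = 5.2e-06). The share of PFKFB3 in the RPKM of this pair ranged from 81.0 to 87.8% (median 83.4%) in late pregnancy and from 28.6 to 49.2% (median 41.5%) in lactation, with no overlap (exact permutation test, adjusted p = 0.000699). Within the pair PFKFB3 was the more abundant per length in every late pregnancy library, and PFKFB2 in every lactation library. PFKFB4, a gene of the same family that is no member and was chosen after its values were seen, ranged from 21.7 to 33.1 CPM (median 26.2) in late pregnancy and from 18.8 to 34.7 CPM (median 29.9) in lactation and did not pass the test (log2 change 0.11 ± 0.11 SE, edgeR adjusted p = 0.347). With medians of 8.19 in late pregnancy and 9.36 in lactation CPM per kilobase, it stood above PFKFB2 (2.32 in late pregnancy and 4.35 in lactation) in both states, and above PFKFB3 (11.4 in late pregnancy and 2.79 in lactation) in lactation but not in late pregnancy.

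Lactate dehydrogenase interconverts pyruvate and lactate, LDHA being the muscle type and LDHB the heart type. LDHB had the highest level per length of this group, at 175 in late pregnancy and 172 in lactation CPM per kilobase. Its libraries ranged from 198 to 236 CPM (median 211) in late pregnancy and from 184 to 223 CPM (median 208) in lactation and did not pass the test (log2 change -0.08 ± 0.06 SE, edgeR adjusted p = 0.22). LDHA ranged from 21.5 to 27.2 CPM (median 24.4) in late pregnancy and from 13.3 to 21.3 CPM (median 14.8) in lactation and fell 1.55-fold without overlap (log2 change -0.63 ± 0.09 SE, edgeR adjusted p = 5.17e-06). Its share of the pair, from 6.06 to 8.14% (median 7.24%) in late pregnancy and from 3.99 to 6.50% (median 4.83%) in lactation, was small in every library and lower in lactation (exact permutation test, adjusted p = 0.002).

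**Figure D3:**
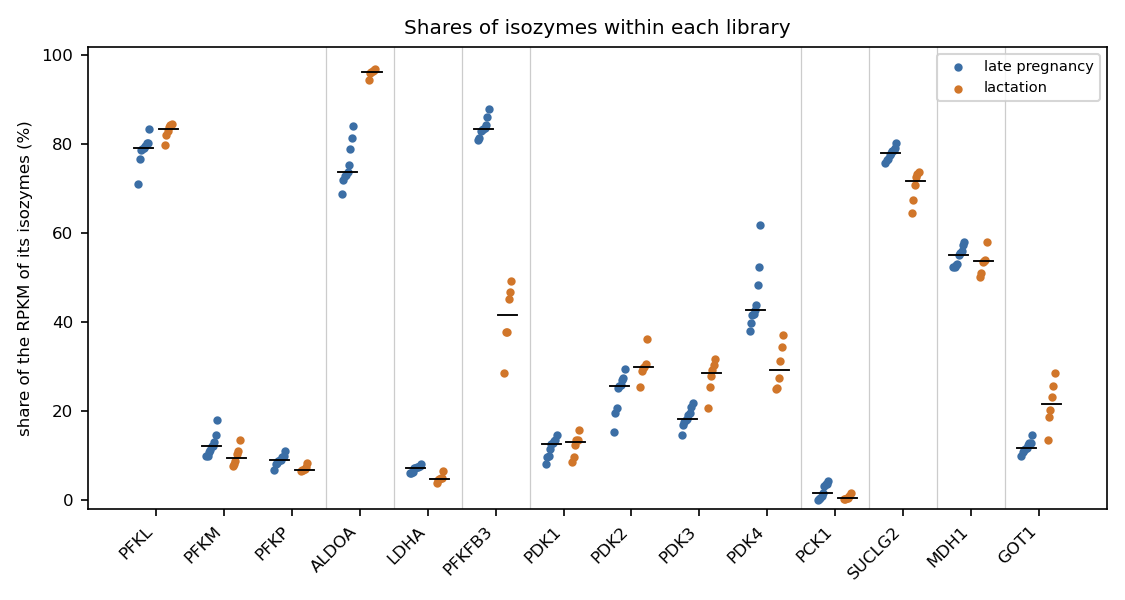
For each of 14 genes the share of the summed RPKM of its isozymes is plotted in each library (%), with the median of the state as a line. The shares of ALDOA, PFKFB3, PDK4 and SUCLG2 do not overlap between the states, and PFKFB3 holds the larger part of its pair in the 9 late pregnancy libraries and the smaller in the 6 of lactation.

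The pentose phosphate pathway held the largest rise and the third largest fall of the tested members. PGD, 6-phosphogluconate dehydrogenase (chromosome 12, 41298874 to 41313555), yields NADPH and ribulose phosphate. It stood from 80.1 to 131 CPM (median 98.2) in late pregnancy and from 678 to 857 CPM (median 832) in lactation, and the lowest lactation library, the first HM pool, was still far above the highest late pregnancy library. The rise was 7.96-fold (log2 change 2.99 ± 0.09 SE, edgeR adjusted p = 1.12e-15). RPIA, ribose-5-phosphate isomerase, which turns ribulose phosphate into the ribose of nucleotides (chromosome 3, 59227307 to 59262740), ran the opposite way, from 15.6 to 22.3 CPM (median 20.9) in late pregnancy and from 3.16 to 6.24 CPM (median 5.01) in lactation. It fell 4.06-fold without overlap (log2 change -2.02 ± 0.12 SE, edgeR adjusted p = 9.95e-12).

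The remaining pentose phosphate genes moved little. TKT, transketolase of the non-oxidative branch, was the most abundant member per length in late pregnancy, with medians of 207 in late pregnancy and 192 in lactation CPM per kilobase, and its libraries ranged from 415 to 564 CPM (median 449) in late pregnancy and from 402 to 484 CPM (median 415) in lactation (log2 change -0.09 ± 0.07 SE, edgeR adjusted p = 0.241). PGD went past it, with medians of 51.2 in late pregnancy and 433 in lactation. TALDO1, transaldolase, changed by log2 0.18 (edgeR adjusted p = 0.0318), a call that was lost without any of 5 libraries in turn, 1 HM and 1 LM pool of late pregnancy and 1 LM and both MM pools of lactation, and with a stricter filter or none, whole-gene reads or upper quartile scaling. PGLS, the lactonase of the step before PGD, fell by log2 -0.29, and RPE, the epimerase, was at -0.08 without passing the test. The summed CPM of the 6 genes was 650.2 to 825 in late pregnancy and 1204 to 1425 in lactation. Without PGD, the other 5 summed to 551 to 704 CPM and 526 to 625 CPM, which overlap.

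Pyruvate dehydrogenase links glycolysis to the citrate cycle. The genes of its first component, PDHA1 and PDHB, and of its second, DLAT, rose on the TMM scale, and all fell with library size alone. PDHB, the most abundant per length at 61.4 in late pregnancy and 101 in lactation CPM per kilobase, ranged from 80.9 to 96.9 CPM (median 90.4) in late pregnancy and from 127 to 185 CPM (median 149) in lactation without overlap, and rose 1.71-fold (log2 change 0.78 ± 0.07 SE, edgeR adjusted p = 4.23e-09). PDHA1 and DLAT rose by log2 0.65 and 0.66, also without overlap. DLD, the third component, which other dehydrogenase complexes share, fell by log2 -0.18, and PDHX, the binding protein of the third component, by -0.29, both with overlap.

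None of the 4 kinases that inhibit the complex rose. PDK4 (chromosome 4, 12769814 to 12781470), known for its induction in fasting, ranged from 20.7 to 48.6 CPM (median 24.7) in late pregnancy and from 8.18 to 14.2 CPM (median 10.9) in lactation and fell 2.52-fold without overlap (log2 change -1.33 ± 0.21 SE, edgeR adjusted p = 1.01e-05). The second HM pool of late pregnancy and the first LM pool held its highest levels, 48.6 and 39.7 CPM. PDK1 ranged from 13.9 to 20.3 CPM (median 17.4) in late pregnancy and from 7.75 to 15.7 CPM (median 10.3) in lactation and fell 1.56-fold with some overlap (log2 change -0.64 ± 0.13 SE, edgeR adjusted p = 0.000191). PDK2 ranged from 19.7 to 26.3 CPM (median 24.1) in late pregnancy and from 14.9 to 20.0 CPM (median 19.0) in lactation and fell 1.28-fold (log2 change -0.36 ± 0.08 SE, edgeR adjusted p = 0.000818). PDK3 lay from 10.9 to 15.7 CPM (median 12.1) in late pregnancy and from 9.52 to 14.3 CPM (median 10.8) in lactation, and the difference did not pass the test (log2 change -0.12 ± 0.11 SE, edgeR adjusted p = 0.302). Within the summed RPKM of the 4 kinases PDK4 held from 38.0 to 61.8% (median 42.8%) in late pregnancy and from 24.9 to 37.1% (median 29.3%) in lactation, without overlap (exact permutation test, adjusted p = 0.000699). The shares of PDK3 and PDK2 were higher in lactation, by 9.01 and 6.08 percentage points (exact permutation test, adjusted p = 0.0014 and 0.0185), and that of PDK1 did not pass the test (adjusted p = 0.706). Without the second LM lactation pool the share of PDK2 had an adjusted p of 0.0552.

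At the same step 3 genes outside the members changed at least 2-fold. MPC1 and MPC2 form the carrier that brings pyruvate into the mitochondrion. MPC1 ranged from 59.0 to 87.0 CPM (median 72.2) in late pregnancy and from 303 to 367 CPM (median 321) in lactation, and MPC2 from 22.3 to 27.8 CPM (median 23.3) in late pregnancy and from 112 to 161 CPM (median 141) in lactation. Neither overlapped between the states, and the rises were 4.53-fold and 5.79-fold (log2 change 2.18 ± 0.08 SE, edgeR adjusted p = 4.57e-15, and log2 change 2.53 ± 0.08 SE, edgeR adjusted p = 5.47e-16). PDP2, a phosphatase that reactivates pyruvate dehydrogenase, rose 3.00-fold without overlap (log2 change 1.59 ± 0.14 SE, edgeR adjusted p = 3.16e-09).

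Anaplerosis refills the citrate cycle, and phosphoenolpyruvate carboxykinase and fructose-1,6-bisphosphatase belong to gluconeogenesis. PC, pyruvate carboxylase, ranged from 53.6 to 84.0 CPM (median 58.3) in late pregnancy and from 35.2 to 48.4 CPM (median 40.0) in lactation and fell 1.57-fold without overlap (log2 change -0.65 ± 0.10 SE, edgeR adjusted p = 1.68e-05). PCK2, the mitochondrial carboxykinase (chromosome 7, 20656461 to 20664917), rose 6.11-fold (log2 change 2.61 ± 0.24 SE, edgeR adjusted p = 9.99e-09), from 7.06 to 15.4 CPM (median 12.1) in late pregnancy. Its lactation libraries stood at 126 and 49.9 CPM in the HM pools, 39.1 and 41.6 in the MM pools and 55.3 and 106 in the LM pools. All 6 lay above the late pregnancy libraries, and the first HM and second LM pools stood at more than 1.5 times the others. PCK1, the cytosolic carboxykinase, was near the floor in both states, with 0 to 13 reads per late pregnancy library and 1 to 9 per lactation library, so no fold is given. Its share of the pair, from 0.00 to 4.24% (median 1.67%) in late pregnancy and from 0.311 to 1.74% (median 0.524%) in lactation, did not pass the test (exact permutation test, adjusted p = 0.133). FBP1, fructose-1,6-bisphosphatase (chromosome 2, 31653092 to 31685085), ranged from 17.0 to 27.0 CPM (median 25.1) in late pregnancy and from 42.0 to 74.3 CPM (median 50.8) in lactation and rose 2.29-fold without overlap (log2 change 1.20 ± 0.12 SE, edgeR adjusted p = 2.84e-08). PCK2 and FBP1 had medians of 24.3 and 24.5 CPM per kilobase in lactation, the highest of this group, and PC had the highest in late pregnancy at 16.1.

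The citrate cycle held 12 genes, 1 of them under another name, of which 3 were higher, 6 were lower and 3 did not pass the test. None changed 2-fold. OGDH, the first component of 2-oxoglutarate dehydrogenase, rose most, by log2 0.91 ± 0.06 SE, from 51.5 to 64.5 CPM to 94.8 to 114 CPM. CS, citrate synthase, which opens the cycle, rose by log2 0.53, and IDH3G, a subunit of the NAD-linked isocitrate dehydrogenase, by 0.21, a call lost with no filter, a stricter filter or upper quartile scaling. OGDH and CS did not overlap between the states.

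Falls in the cycle were strongest at isocitrate and succinyl-CoA. IDH2, the mitochondrial NADP-linked isocitrate dehydrogenase, ranged from 16.5 to 22.0 CPM (median 20.6) in late pregnancy and from 8.18 to 12.7 CPM (median 10.8) in lactation and fell 1.86-fold (log2 change -0.89 ± 0.09 SE, edgeR adjusted p = 2.27e-08). IDH3A, the catalytic subunit of the NAD-linked enzyme, fell by log2 -0.67, and IDH3B by -0.18, so its 3 subunit genes did not move alike. SUCLG1, the subunit common to both succinyl-CoA ligases, had the highest level per length of the cycle, with medians of 85.9 in late pregnancy and 67.0 in lactation CPM per kilobase. It ranged from 90.4 to 114 CPM (median 104) in late pregnancy and from 77.5 to 90.6 CPM (median 81.4) in lactation, barely overlapping, and fell 1.24-fold (log2 change -0.31 ± 0.06 SE, edgeR adjusted p = 9.02e-05). SUCLG2 is the GTP-forming partner of SUCLG1. Its libraries ranged from 175 to 199 CPM (median 194) in late pregnancy and from 112 to 136 CPM (median 124) in lactation, without overlap, for a fall of 1.54-fold (log2 change -0.62 ± 0.05 SE, edgeR adjusted p = 1.91e-09). SUCLA2, the ATP-forming partner, lay from 49.1 to 62.7 CPM (median 53.7) in late pregnancy and from 45.9 to 62.2 CPM (median 52.1) in lactation and did not pass the test (log2 change -0.06 ± 0.07 SE, edgeR adjusted p = 0.513). The share of SUCLG2 in this pair ranged from 75.7 to 80.3% (median 78.0%) in late pregnancy and from 64.4 to 73.6% (median 71.7%) in lactation (exact permutation test, adjusted p = 0.000699). FH, fumarase, fell by log2 -0.31 without overlap.

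The malate dehydrogenases and aspartate aminotransferases form the malate-aspartate shuttle. MDH1, the cytosolic form, ranged from 95.0 to 111 CPM (median 101) in late pregnancy and from 90.1 to 123 CPM (median 105) in lactation (log2 change 0.04 ± 0.06 SE, edgeR adjusted p = 0.607). MDH2, the mitochondrial form, ranged from 102 to 135 CPM (median 111) in late pregnancy and from 120.1 to 131 CPM (median 123) in lactation (log2 change 0.10 ± 0.06 SE, edgeR adjusted p = 0.169). Neither passed the test, nor did the share of MDH1 in the pair (exact permutation test, adjusted p = 0.341). GOT1, the cytosolic aminotransferase, ranged from 8.60 to 10.4 CPM (median 9.73) in late pregnancy and from 11.1 to 23.5 CPM (median 17.1) in lactation, without overlap, and rose 1.78-fold (log2 change 0.84 ± 0.11 SE, edgeR adjusted p = 1.11e-06). Its highest lactation libraries, the first HM and second LM pools at 23.5 and 20.4 CPM, were the same as those of PCK2. GOT2, the mitochondrial aminotransferase, ranged from 68.3 to 107 CPM (median 91.3) in late pregnancy and from 64.0 to 88.3 CPM (median 82.1) in lactation and did not pass the test (log2 change -0.17 ± 0.09 SE, edgeR adjusted p = 0.0895). It was called lower in lactation with no filter, a stricter filter, whole-gene reads or upper quartile scaling (edgeR adjusted p from 0.0033 to 0.0468). The share of GOT1 rose, from 9.94 to 14.6% (median 11.8%) in late pregnancy and from 13.6 to 28.6% (median 21.6%) in lactation (exact permutation test, adjusted p = 0.00112).

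Of 54 further genes of these pathways, 53 were in the table and 40 were tested. Higher levels in lactation were called for 15 and lower for 7, and 18 did not pass the test, a called share of 55.0% beside 68.4% over all genes. The sugar-entry step had no member. HK1 and HK2, the hexokinases of most tissues, were at log2 0.10 (edgeR adjusted p = 0.277) and 0.74 (edgeR adjusted p = 3.02e-06), and GPI, the isomerase that follows, at 0.11 (edgeR adjusted p = 0.083). ADPGK, an ADP-dependent glucokinase, rose 2.04-fold without overlap (log2 change 1.03 ± 0.06 SE, edgeR adjusted p = 1.24e-11). HKDC1, another hexokinase, was called lower (edgeR adjusted p = 0.00094), with 8 to 46 reads per late pregnancy library and 0 to 3 per lactation library, so no fold is given. TIGAR, which lowers fructose 2,6-bisphosphate, rose by log2 1.18.

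Genes whose enzymes can yield NADPH moved unequally on the TMM scale. Beside the 7.96-fold rise of PGD, H6PD, hexose-6-phosphate dehydrogenase of the endoplasmic reticulum, fell 2.37-fold (log2 change -1.25 ± 0.13 SE, edgeR adjusted p = 3.43e-08). IDH1, the cytosolic isocitrate dehydrogenase, ranged from 372 to 484 CPM (median 437) in late pregnancy and from 1035 to 1409 CPM (median 1216) in lactation and rose 2.84-fold (log2 change 1.51 ± 0.07 SE, edgeR adjusted p = 5.06e-13), while its mitochondrial counterpart IDH2 fell. Per length IDH1 stood at 193 in late pregnancy and 538 in lactation CPM per kilobase, above PGD in both states. ME1, cytosolic malic enzyme, ranged from 1.83 to 2.81 CPM (median 2.14) in late pregnancy and from 10.7 to 41.4 CPM (median 23.9) in lactation and rose 12.0-fold from a low level (log2 change 3.59 ± 0.24 SE, edgeR adjusted p = 8.98e-11). ME2, a mitochondrial malic enzyme linked to NAD, fell 3.75-fold (log2 change -1.91 ± 0.21 SE, edgeR adjusted p = 1.14e-07).

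ACO1, the cytosolic aconitase, rose by log2 1.26 without overlap. SLC25A10, the dicarboxylate carrier of the inner membrane, fell by log2 -1.27. DLST, the second component of the 2-oxoglutarate dehydrogenase complex, fell by log2 -0.19, against the rise of OGDH. SDHA of succinate dehydrogenase was at -0.11 (edgeR adjusted p = 0.243). Among the other subunits of that enzyme SDHC was higher in lactation without overlap (log2 change 0.25, edgeR adjusted p = 0.000306). SDHB and SDHD did not pass the test, at log2 -0.06 and 0.09 (edgeR adjusted p = 0.371 and 0.116).

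**Figure D4:**
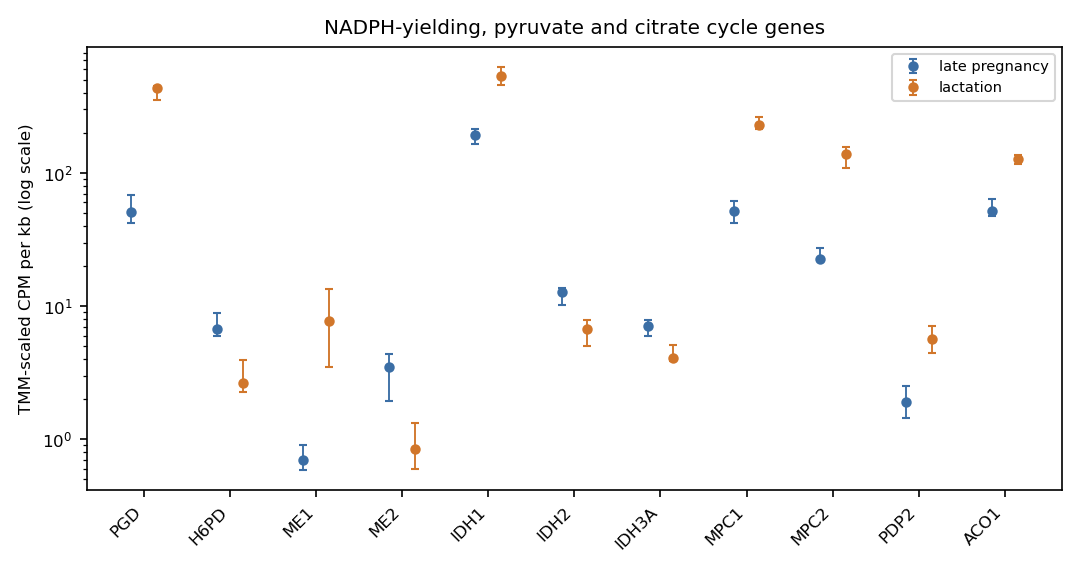
Points are medians and bars the lowest and highest of the 9 late pregnancy and 6 lactation libraries, in TMM-scaled CPM per kilobase of exon on a log axis. PGD, IDH1, ME1, MPC1, MPC2, PDP2 and ACO1 stand higher in lactation, and H6PD, ME2, IDH2 and IDH3A lower, with no overlap for any of the 11 genes on this scale.

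Reads on introns, the reads on a gene less those on its exons, were tested as a second readout from the same libraries. Of 39 members that could be tested 28 were called, 13 higher and 15 lower in lactation, where 58.0% of all 10344 genes tested on introns were called, 29.0% in each direction. Among the 24 members called by both readouts 22 moved the same way. How often this held over all genes was not counted, so the count says nothing particular about the members. PGD rose by log2 2.72 ± 0.11 SE, edgeR adjusted p = 8.63e-16 on introns, PCK2 by 3.098 ± 0.28 SE, edgeR adjusted p = 1.17e-09, and GOT1 by 1.41 ± 0.22 SE, edgeR adjusted p = 7.52e-06. PFKFB3, RPIA and PDK4 fell on introns by log2 -1.93 ± 0.19 SE, edgeR adjusted p = 7.63e-09, by -1.71 ± 0.18 SE, edgeR adjusted p = 2.54e-08, and by -1.78 ± 0.38 SE, edgeR adjusted p = 0.000346. Intron and exon reads went opposite ways for SUCLG2, with introns at log2 0.38 ± 0.10 SE, edgeR adjusted p = 0.00204 against exons at -0.62, and for TALDO1, with introns at -0.47 ± 0.12 SE, edgeR adjusted p = 0.00223 against exons at 0.18. For 4 members whose exon reads did not pass the test, intron reads were called lower. Their intron changes were log2 -0.97 ± 0.22 SE, edgeR adjusted p = 0.000577 for PFKP, -0.58 ± 0.15 SE, edgeR adjusted p = 0.00249 for LDHB, -0.39 ± 0.08 SE, edgeR adjusted p = 0.000277 for TKT and -0.21 ± 0.09 SE, edgeR adjusted p = 0.044 for SUCLA2. The libraries hold no strand, so intron reads of a gene overlapping the other strand are counted too. Without the first HM lactation pool, the one with many intron reads, 13 members were called higher and 14 lower.

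**Figure D5:**
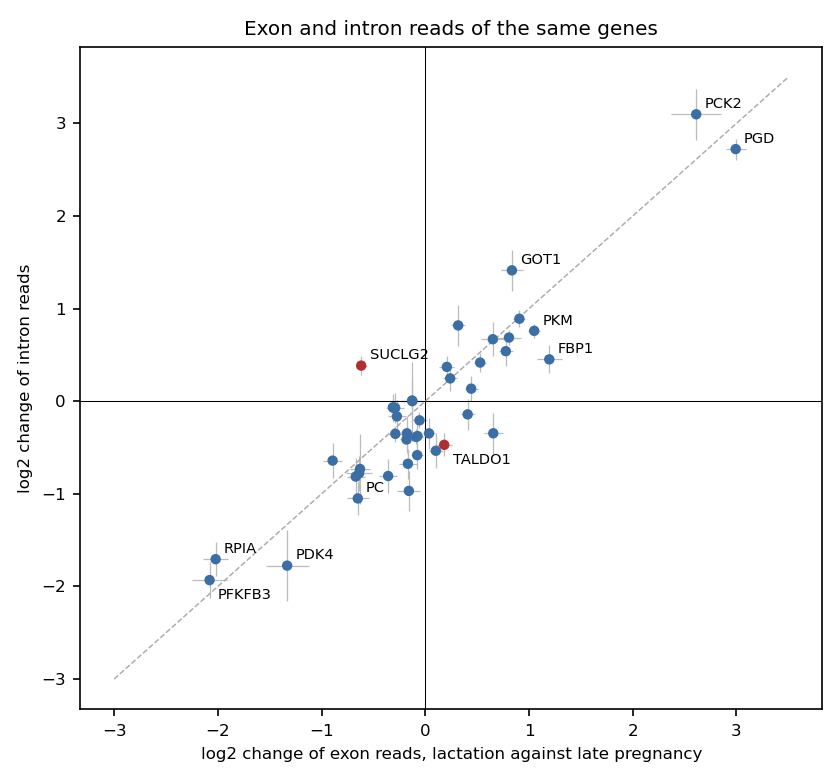
The log2 change of exon reads (x axis) and of intron reads (y axis) is plotted for the members tested on both, with bars of 1 SE and a dashed line of equal change. PGD and PCK2 lie at the upper right and RPIA, PFKFB3 and PDK4 at the lower left, while SUCLG2 and TALDO1, in red, lie in opposite quadrants for the 2 readouts.

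Dam feed was compared within each state. In late pregnancy none of the 43 members was called by edgeR at an adjusted p under 0.05, and 0% of 13747 genes were. Unadjusted p-values fell under 0.05 for 3 members, PGAM1, PGD and PDK1, as for 4.15% of all genes, and DESeq2 called 20 genes, no member among them. PGD stood at 131, 99.0 and 121 CPM in the HM pools, 96.4, 98.2 and 82.1 in the MM pools and 105, 80.1 and 94.2 in the LM pools. All HM pools lay above all MM pools, the closest by under 1 CPM, and the LM pools overlapped with both. In lactation no member of 42 was called by edgeR, and 0.00849% of 11777 genes were, 1 gene. Unadjusted p-values were under 0.05 for 7 members, ALDOC, TALDO1, PDHA1, PDK2, PDK3, PCK2 and FBP1, and for 7.61% of all genes, and DESeq2 called 36 genes but no member. For the interaction of dam feed and state edgeR called none of the 42 members and 0% of 13345 genes. Unadjusted p-values were under 0.05 for PCK2 and IDH3G, and for 6.56% of all genes, and DESeq2 called 19 genes but no member.

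Markers of cell types also differed between the states, and their part in the changes above was not tested. Of the markers tested by edgeR, lower levels in lactation were called for all 7 of T cells, 4 of 5 of fibroblasts, 4 of 5 of endothelium and 4 of 7 of macrophages, with 1 macrophage marker higher. The summed CPM of the T cell list was 44.4 to 71.6 in late pregnancy and 14.1 to 21.9 in lactation, that of fibroblasts 377 to 658 and 244 to 398, that of endothelium 158 to 214 and 97.1 to 139, and that of macrophages 146.2 to 194 and 83.7 to 121. Luminal epithelium had 4 of 8 higher and 2 lower, with sums of 1659 to 2048 and 2412 to 2684 CPM, and myoepithelium 3 of 7 higher and 2 lower, with sums of 669 to 725 and 588 to 847. The adipocyte list had 1 of 4 tested higher, CIDEA, which lactating epithelium also expresses, and its sums of 244 to 462 and 716 to 864 CPM rested on CIDEA and FABP4. Of its defining markers ADIPOQ had medians of 11.1 CPM in late pregnancy and 6.57 CPM in lactation and did not pass the test (edgeR adjusted p = 0.347), ACVR1C had at most 3 reads in every library, and LEP and PLIN1 had medians under 1 CPM in both states. B and plasma cells had 1 of 2 tested higher and 1 lower, with sums of 3.104 to 4.600 and 4.04 to 8.38 CPM, and PAX5 had at most 3 reads in any library. Neutrophils had 2 of 3 tested higher, MPO and ITGAM, with sums of 1.28 to 2.89 and 8.13 to 18.4 CPM. The lactation sums rested mostly on MPO, with medians of 0 CPM in late pregnancy and 14.7 CPM in lactation. CSF3R did not pass the test (log2 change -0.46, edgeR adjusted p = 0.276). CXCR2, S100A8 and S100A12 had medians under 1 CPM in both states, and ELANE had no more than 3 reads in any library. Erythroid markers, with none tested, summed to at most 1.61 CPM, and skeletal muscle markers, with 1 tested and lower, to at most 2.14 CPM.

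The uniquely placed share of the reads of each of the 48 genes was 98.2 to 100%, and with unique reads alone 16 members were again higher and 18 lower. Column names give each library 1 of 2 lanes, although the labels say that each was run across both. Among the libraries named for lane 7 the same test called 14 members higher and 16 lower, and among those for lane 8 it called 16 higher and 15 lower. All of these were among the 34 called over all libraries, with the same direction. TPI1, ENO1, TALDO1 and IDH3G were not called in lane 7, nor were PGLS, DLD and IDH3B in lane 8. The 8 members that changed at least 2-fold kept their direction without any 1 library, and the value that moved most was that of PCK2, log2 2.37 to 2.74.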

How the data were processed

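RNA of 15 pools (9 of late pregnancy, 6 of lactation) was sequenced by the study as paired reads. Per the study's methods, the authors mapped them in CLC Genomics Workbench. The labels name the genome Oar_v3.1 and the methods a slightly later version, so positions are those of the deposited table and the build is not settled. The authors deposited read counts per gene on exons and on the whole gene, total and unique, without normalization. The deposited RPKM values are the authors' exon reads per kilobase of exon, scaled by the gene reads of the library, and recomputing them from the counts gave a largest relative difference of 3.5e-07. The authors' normalized column is RPKM after quantile normalization, recorded here as a score because all libraries share the same sorted values. The authors' fold changes and p-values of their Baggerly test were not used.

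Exon counts, or whole-gene counts for the 5583 of 24691 features without an annotated transcript, were tested with edgeR 4.0.16 (TMM, filterByExpr by state, quasi-likelihood F-test, no covariate) in R 4.3.3. P-values were adjusted by Benjamini-Hochberg over all tested genes. The SE of a log2 change is its size divided by the square root of F. CPM per kilobase uses the exon length. Intron reads were tested in the same way, and dam feed by an F-test within each state and as an interaction. For 14 isozyme shares of deposited RPKM, a two-sided exact permutation test that compared all 5005 assignments of the state labels was used, adjusted over the 14, and the smallest p it can give is 0.0002. Alternatives used DESeq2 1.42.0 and limma 3.58.1, the latter on log2(RPKM + 1). On simulated data of 12712 genes, 190 were changed by log2 1. The test of states recovered 92.1% of these 190 and called 0.0559% of the unchanged ones. Its behaviour with as large a called share as between the states here, 68.4%, was not tested. Values named in full are those of members called with an absolute log2 change of at least 1, of isozyme families, and of the member with the highest level per length in each group of roles. Genes outside the members are named where called with an absolute log2 change of at least 1, or at a step without a member, but a few genes that meet this rule are not reported here. Members, lists and tests were chosen with earlier results of these data known. PFKL, MDH2, GOT2 and TIGAR were matched by place among RefSeq neighbours, and PFKM, PDHX, ENO3, PKLR and G6PC by gene number (RefSeq assembly ARS-UI_Ramb_v3.0, names only). Reads carry no molecular identifiers, so error was taken from the variation among pools.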

Additional observations from a re-analysis of the deposited data

Results flagged for a closer look

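In groups of 6 or 9 libraries, Dixon's test at 95% looked for a highest or lowest library that lay far from the others, over 98 sets of values, where chance gives about 1 in 20. It marked 5. The intron share of the first HM lactation pool, 12.9% of gene reads, stood above the 5.74 to 6.54% of the other lactation libraries. The other 4 values were of members, and each rested on 1 library. PGK1 in the second HM lactation pool was at 104 CPM, above 83.3 to 85.5 CPM in the others. TKT in the third HM pool of late pregnancy was at 564 CPM, above 415 to 480.1 CPM. FBP1 in the first LM lactation pool was at 74.3 CPM, above 42.0 to 53.3 CPM. IDH2 in the first LM pool of late pregnancy was at 16.5 CPM, below 19.2 to 21.98 CPM. No pool was marked for more than 1 member.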

How the results depend on the processing

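Of 30 alternatives to the comparison of states, 26 to 28 left the counts of members called higher (16) and lower (18) and their median log2 change (-0.08) close to the values above. The exceptions were scalings. With library size only 2 members were higher and 40 lower, with a median of -1.99, and limma on RPKM also gave 2 and 40, with a median of -1.73. These do not correct for the milk protein reads, and the median of all genes moved to -1.94 and -1.30. Library size only reversed PFKL -1.67, ALDOA -1.46, GAPDH -1.59, PGK1 -1.50, PGAM1 -1.83, PKM -0.86, PFKFB2 -1.09, TALDO1 -1.73, PDHA1 -1.26, PDHB -1.13, DLAT -1.25, FBP1 -0.71, CS -1.38, IDH3G -1.70, OGDH -0.997, MDH1 -1.88, MDH2 -1.80 and GOT1 -1.06. Limma on RPKM reversed PFKL -1.42, ALDOA -1.32, GAPDH -1.46, PGK1 -1.33, PGAM1 -1.63, PKM -0.70, PFKFB2 -0.70, TALDO1 -1.56, PDHA1 -1.03, PDHB -1.003, DLAT -0.95, FBP1 -0.55, CS -1.21, IDH3G -1.55, OGDH -0.83, MDH1 -1.72, MDH2 -1.64 and GOT1 -0.80. Upper quartile scaling gave a median of -0.23, with 14 higher and 24 lower and 63.7% of all calls lower instead of 51.6%, and limma on quantile-normalized RPKM a median of -0.23, with 12 and 22. The latter reversed TALDO1 -0.081, IDH3G -0.070, MDH1 -0.23 and MDH2 -0.16. The cause of these last shifts was not tested. Among the single values of the 47 tested genes, 1308 kept their call, 27 lost it, 35 gained one and 40 reversed. LDHB, TKT and GOT2 gained a call as lower with a stricter filter, upper quartile scaling and limma on quantile-normalized RPKM. Leaving out each library in turn gave 15 to 16 members higher, 18 lower and medians of -0.10 to -0.07, 13 higher and 13 to 16 lower on introns, 9 to 11 of the 14 isozyme shares, and 0 members for dam feed in either state or the interaction.

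The 6 pairs of same feed and pool number showed little shared deviation from the means of their feed group and state (r from -0.04 to 0.06). Around the means of the state alone r ran from -0.03 to 0.09. With 2 lactation pools per feed, deviations from the feed group mean mirror each other, so those r values are not independent. Whether the numbers pair the pools is therefore not settled. The replicate block gave 15 members higher and 17 lower, with 8464 instead of 9122 genes called, and ENO1 and IDH3G were no longer called. For the isozyme shares, the paired exact sign-flip test over 6 pairs, whose smallest p is 0.0312, gave adjusted p-values from 0.0625 up and so 0 of 14 shares, against 10 of 14 without pairs. Without a filter on low counts, dam feed in lactation called 2 members, PCK2 and FBP1, among 391 genes, and the cause was not tested. In lactation few reads were left for members of low level, such as PFKP with 18 to 52 reads, PCK1 with 1 to 9 and RPIA with 18 to 54, which limits what could be seen there.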

Other observations

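The spread between libraries of a state, as the SD of log2(CPM + 0.5), had a median of 0.13 over the tested members in late pregnancy and 0.17 in lactation, beside 0.17 and 0.21 over all tested genes. PCK2 spread most in lactation, with an SD of 0.71 among its 6 libraries, and ME1, among the genes outside the members, ranged from 10.7 to 41.4 CPM there. The 43 members together took 0.453 to 0.537% of the reads used in late pregnancy and 0.158 to 0.184% in lactation, and on the TMM scale 2797 to 3125 and 3530.1 to 3850 CPM. Those sums include PGD, with medians of 98.2 CPM in late pregnancy and 832 CPM in lactation, and were not computed without it. The median change of the tested members was log2 -0.08, so the higher sums do not show a general rise.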
